A study of Homo sapiens with 12 samples.

Results

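Messenger RNA of 10 inhibitory receptors of the myeloid cell surface was followed in MOLM-13 cells: the leukocyte immunoglobulin-like receptors LILRB1, LILRB2, LILRB3 and LILRB4, the collagen receptor LAIR1, the CD47 receptor SIRPA, the sialic acid-binding receptors CD33, SIGLEC7 and SIGLEC9, and the paired receptor PILRA. The receptors were chosen by symbol. All rows of the deposited table that carried one of these symbols were summed per symbol, which gave 10 of 46639 gene symbols. Of the 10, 6 had reads in every library, and 7 reached the level required for a test, which was at least 10 normalised counts in at least 3 of the 12 libraries. A normalised count is the number of reads counted for a gene divided by the size factor of its library.

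MOLM-13 is a human acute myeloid leukemia (AML) cell line that carries the fusion gene KMT2A-MLLT3. The 4 groups were untreated cells, cells given 100 nM decitabine (DAC, an inhibitor of DNA methyltransferases), cells given 1 µM all-trans retinoic acid (ATRA, the ligand of the retinoic acid receptors), and cells given both drugs at these doses (DAC+ATRA), with 3 libraries each. According to the labels, the medium of all groups held 20% FCS and 5 ng/ml of the myeloid growth factor GM-CSF. The methods of the study give a lower share of FCS for its cell lines and name no GM-CSF. The untreated libraries are labelled 96 h and all treated ones 72 h, whereas the study describes harvest at 72 h and a shorter exposure to ATRA than to DAC. The libraries are technical triplicates of 1 cell line without a vehicle control, so that the p-values measure the spread within 1 experiment, and time and treatment cannot be told apart if the labelled times hold.

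All of these receptors dampen activation. A ligand on another cell, on the same cell or in the matrix engages the extracellular part, a Src family kinase phosphorylates tyrosine motifs (ITIMs) in the cytoplasmic tail, and the phosphatases SHP-1 (encoded by PTPN6) and SHP-2 (PTPN11) are recruited to dephosphorylate nearby activating pathways. Monocytes, macrophages and granulocytes carry several of them, and their levels change as myeloid cells mature. CD33 is also a surface marker of AML blasts and the target of an antibody-drug conjugate, and CD47 binding to SIRPA is known as a signal that restrains phagocytosis. Many of these receptors have a close activating relative (SIRPB1 for SIRPA, PILRB for PILRA, LILRA6 for LILRB3) that lacks the inhibitory tail, and several of these relatives signal through the adaptor TYROBP.

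Each library held between 4.67 and 11.9 M recovered reads (M is mega), and both groups that received DAC were the shallowest. The 9 genes set for the labelled cell type were present in every group, from LYZ to the low PTPRC at 11.9 to 26.5 normalised counts. The lists of B, NK, erythroid, megakaryocyte and epithelial or stromal genes summed to at most 8.29 CPM in any library. The T cell list summed to 68.0 to 77.3 CPM in untreated libraries, 42.8 to 50.7 with DAC, and 2.58 to 5.84 with ATRA or DAC+ATRA. In untreated and DAC libraries most of it came from TRAC (means of 520 and 316 normalised counts), with ATRA from TRAC (18.2) and CD3D (5.66), and with DAC+ATRA from CD3D (22.9) and TRAC (14.3), while CD8A was at 0 in all groups and CD3E at 0 in all but DAC+ATRA (mean 0.681 normalised counts). The part of these genes in the results was not tested. The third DAC library lay apart from the other 2 of its group on the third principal component. The values of SIRPA and CD33 with DAC, and the share of all genes called, are given with and without it.

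Of the receptors, 8 lie on chromosome 19 (coordinates on hg38 from GENCODE release 44). The SIGLEC cluster holds SIGLEC9 (chr19:51124906-51136651, plus strand), SIGLEC7 (chr19:51142299-51153526, plus) and CD33 (chr19:51225064-51243860, plus). The leukocyte receptor complex holds LILRB3 (chr19:54216278-54223506, minus), LILRB2 (chr19:54273812-54281184, minus), LAIR1 (chr19:54351384-54370558, minus), LILRB1 (chr19:54617158-54638022, plus) and LILRB4 (chr19:54643889-54670359, plus). SIRPA lies on chr20:1894167-1940592 (plus) and PILRA on chr7:100367530-100400096 (plus).

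The windows around the transcription start are shown for CD33 and LAIR1, which rose with DAC+ATRA, and for the neighbours SIGLEC7 and SIGLEC9, whose windows share a run of 66 bases. They run from 250 bases before to 50 bases after a RefSeq start (GRCh38.p14), and RefSeq windows were matched for 8 of the 10 receptors, 14 windows in all. For LAIR1 and SIGLEC9, 1 of 2 windows is shown, chosen for the most matches to the letters marked and then for the most CpG dinucleotides. Capitals mark the letters GAGGAA, or TTCCTC where the match is on the other strand. These letters form the core of sites bound by PU.1, the ETS factor of myeloid genes. The windows are CD33 (chr19:51224830-51225129, plus), LAIR1 (chr19:54364882-54365181, minus), SIGLEC7 (chr19:51142209-51142508, plus) and SIGLEC9 (chr19:51124656-51124955, plus).

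CD33: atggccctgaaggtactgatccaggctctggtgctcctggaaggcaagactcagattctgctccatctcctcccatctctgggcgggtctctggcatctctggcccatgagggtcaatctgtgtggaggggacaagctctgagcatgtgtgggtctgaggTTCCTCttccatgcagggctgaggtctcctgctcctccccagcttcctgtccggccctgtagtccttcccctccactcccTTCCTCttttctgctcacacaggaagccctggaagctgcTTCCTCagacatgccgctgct

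LAIR1: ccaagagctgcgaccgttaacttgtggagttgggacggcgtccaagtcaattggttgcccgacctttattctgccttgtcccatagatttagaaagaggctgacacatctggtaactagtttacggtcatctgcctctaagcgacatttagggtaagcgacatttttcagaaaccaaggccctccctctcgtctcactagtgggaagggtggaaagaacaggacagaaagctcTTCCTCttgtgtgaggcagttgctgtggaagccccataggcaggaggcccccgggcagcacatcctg

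SIGLEC7: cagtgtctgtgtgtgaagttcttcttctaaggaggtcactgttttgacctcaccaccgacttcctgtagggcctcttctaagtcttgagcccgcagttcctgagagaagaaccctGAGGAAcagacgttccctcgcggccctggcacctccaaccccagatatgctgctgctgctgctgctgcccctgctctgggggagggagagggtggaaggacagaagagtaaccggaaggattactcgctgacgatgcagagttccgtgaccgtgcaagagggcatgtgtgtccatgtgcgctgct

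SIGLEC9: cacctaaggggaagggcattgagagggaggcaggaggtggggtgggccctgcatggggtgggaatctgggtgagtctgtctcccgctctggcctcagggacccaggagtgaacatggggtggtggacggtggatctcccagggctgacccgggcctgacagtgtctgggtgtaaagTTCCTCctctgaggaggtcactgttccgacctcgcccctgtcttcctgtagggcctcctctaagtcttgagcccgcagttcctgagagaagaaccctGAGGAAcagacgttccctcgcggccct

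CD33 held 3 such cores, all on the strand opposite to the one printed, the SIGLEC9 window shown 2 (the other SIGLEC9 window 1), and the windows of LAIR1 and SIGLEC7 1 each. Of the 14 windows, several of which overlap, 9 held at least 1 core and 5 held none (2 of the 3 of LILRB1 and all 3 of LILRB2). Of all 35116 RefSeq promoter windows of this length, 27.9% held at least 1 on either strand. The retinoid receptor half-site AGGTCA was found 2 times in the SIGLEC7 window and 1 time in the SIGLEC9 window, and in no window of the other receptors, against 13.8% of all windows with at least 1. No receptor window held 2 half-sites as direct repeats with 1, 2 or 5 bases between them. The receptors' windows were poor in CpG, the dinucleotide whose methylation DAC removes: they held 2 to 11 CpG each, 3 of them in CD33 and 10 in the LAIR1 window shown, against a median of 14 over all windows (quartiles 4 and 28). The run that SIGLEC7 and SIGLEC9 share contains a core and lies at bases 77 to 142 of the SIGLEC7 window and 235 to 300 of the SIGLEC9 window, counted from the 5′ end:

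shared run: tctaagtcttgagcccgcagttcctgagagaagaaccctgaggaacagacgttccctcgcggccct

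The levels of all 10 receptors by library are plotted in normalised counts.

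**Figure D1:**
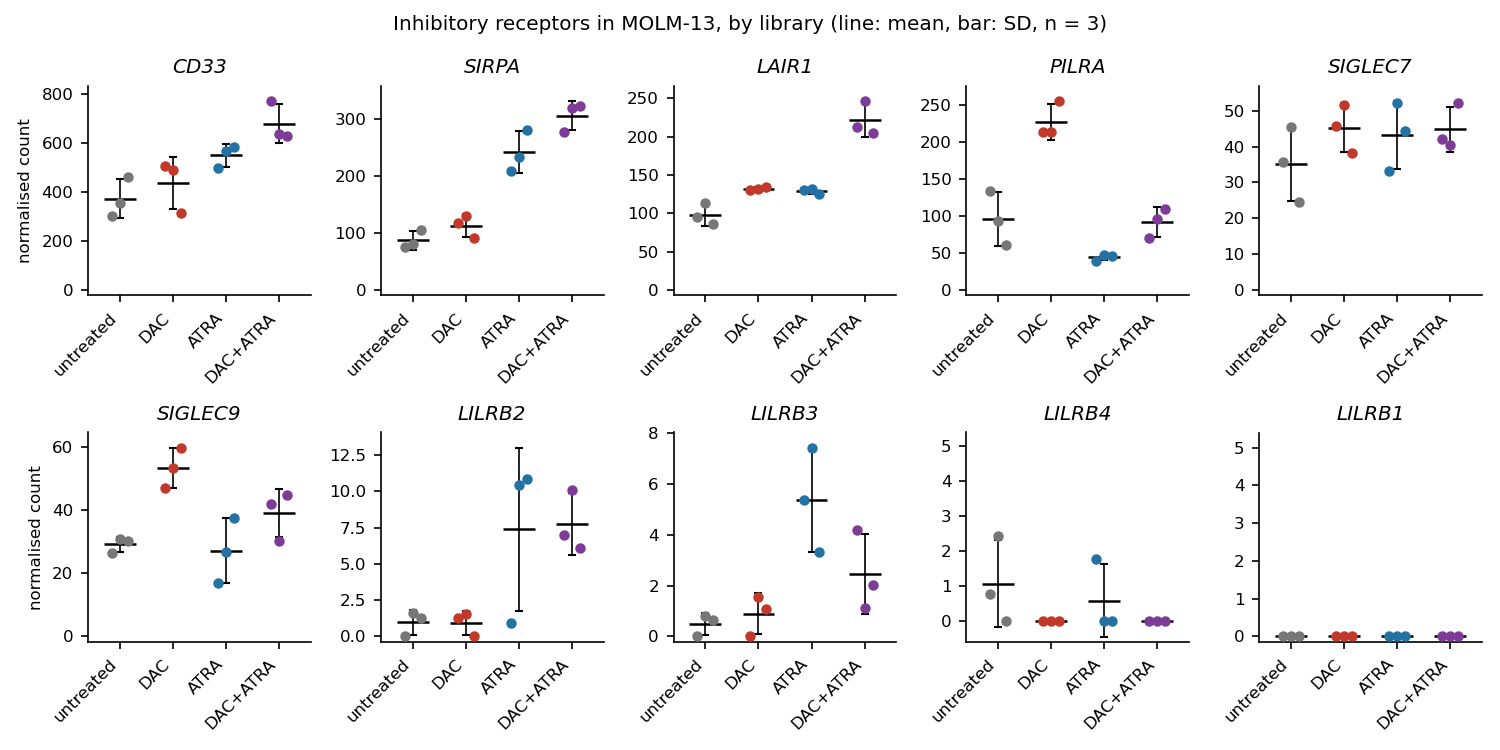
Normalised counts (vertical axis, linear, own scale per panel) of the 10 receptors in each library of the 4 groups; points are libraries, horizontal lines group means and bars the SD of 3 libraries. SIRPA, LAIR1 and CD33 are highest with DAC+ATRA, PILRA and SIGLEC9 with DAC, and the LILRB genes stay below 11 normalised counts.

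SIRPA showed the largest rise among the receptors called. It encodes the receptor for CD47 on macrophages. SIRPA was at 74.7, 80.4 and 105 normalised counts in the untreated libraries, at 117, 130 and 90.3 with DAC, at 210, 234 and 282 with ATRA, and at 277, 320 and 323 with DAC+ATRA. All libraries with ATRA, alone or with DAC, lay above all libraries without it. Untreated and DAC libraries overlapped, as did ATRA and DAC+ATRA libraries. Against untreated, SIRPA rose 2.78-fold with ATRA (log2 change 1.47 ± 0.18 SE, limma adjusted p = 2.02e-06) and 3.53-fold with DAC+ATRA (1.82 ± 0.18, adjusted p = 1.39e-07). Folds here are on the scale of log2(normalised count + 1), which understates changes of low genes, and a difference was called at an adjusted p under 0.01 over 10642 protein-coding genes. With DAC alone the log2 change was 0.37 (95% interval -0.00 to 0.74), or 0.52 without the third DAC library (adjusted p = 0.0359), and between DAC+ATRA and ATRA it was 0.35 (-0.03 to 0.72). In bulk RNA, a change in the share of cells with the transcript and a change in the amount per cell cannot be told apart.

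LAIR1 encodes a collagen receptor of most leukocytes. It was at 94.9, 114 and 85.9 normalised counts in untreated cells, at 131, 132 and 134 with DAC, at 131, 132 and 125 with ATRA, and at 213, 247 and 205 with DAC+ATRA. The 3 combination libraries lay above all other libraries, and the libraries of either single drug lay above all untreated ones. LAIR1 rose 2.25-fold with DAC+ATRA against untreated (log2 change 1.17 ± 0.15, limma adjusted p = 6.11e-06), 1.67-fold against DAC (adjusted p = 0.00121) and 1.71-fold against ATRA (adjusted p = 0.0013). The log2 changes with DAC alone (0.44, adjusted p = 0.0637) and ATRA alone (0.40, adjusted p = 0.0496) did not pass. Both comparisons with the single drugs lost the call without the second DAC+ATRA library (adjusted p = 0.0118 against DAC and 0.0129 against ATRA).

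The LAIR1 counts carry a limit of the annotation. Of its 1753 reads over 12 libraries, 85.3% were on transcript rows with no match in GENCODE release 44, mostly the row ENST00000621769, which held 78.7% to 82.4% of LAIR1 on average in each group. Only from rows with a match, the log2 change with DAC+ATRA against untreated was 1.48 (adjusted p = 0.00361), and the changes against DAC (1.06, adjusted p = 0.0376) and against ATRA (1.12, adjusted p = 0.0383) did not pass.

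CD33 was the most counted of the receptors, with 6303 reads over the 12 libraries. It was at 303, 354 and 460 normalised counts in untreated cells, at 505, 489 and 312 with DAC, at 497, 566 and 584 with ATRA, and at 771, 636 and 630.0 with DAC+ATRA. The combination libraries lay above all others, the ATRA libraries above all untreated ones, and the DAC and untreated libraries overlapped. CD33 rose 1.84-fold with DAC+ATRA against untreated (log2 change 0.88 ± 0.18, limma adjusted p = 0.000488) and 1.59-fold against DAC (0.67 ± 0.18, adjusted p = 0.00714). The call against DAC was kept in 15 of 25 alternative fits (largest adjusted p 0.0449). It was lost without any 1 of the DAC+ATRA libraries, without the second untreated, the second ATRA or the third DAC library, and with the replicate block, among others. Without the third DAC library, which was the lowest of its group, the change fell to 0.44 (adjusted p = 0.0291). With ATRA alone the log2 change was 0.58 (adjusted p = 0.0138), which did not pass. It passed with DESeq2 (adjusted p = 0.00503), with only the compared groups, and without the third DAC (0.00121) or the third untreated library (0.00402), and the largest adjusted p was 0.0888. With DAC alone the log2 change was 0.22 (95% interval -0.15 to 0.58), or 0.44 without the third DAC library (adjusted p = 0.0359).

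PILRA was the receptor that the 2 drugs moved in opposite directions. It encodes an inhibitory receptor for sialylated O-glycosylated proteins and forms a pair with the activating PILRB. PILRA was at 134, 93.4 and 60.8 normalised counts in untreated cells, at 212, 213 and 255 with DAC, at 39.4, 46.9 and 46.0 with ATRA, and at 70.0, 95.7 and 109 with DAC+ATRA. All DAC libraries lay above and all ATRA libraries below every other library, and the combination overlapped with untreated. Against untreated, PILRA rose 2.46-fold with DAC (log2 change 1.30 ± 0.24, limma adjusted p = 0.000941) and fell 2.05-fold with ATRA (-1.04 ± 0.24, adjusted p = 0.00202), and with both drugs the change was -0.02 (95% interval -0.52 to 0.49). DAC+ATRA was thus lower than DAC (-1.32 ± 0.24, adjusted p = 0.000337) and higher than ATRA (1.02 ± 0.24, adjusted p = 0.00485). The untreated libraries differed from each other by more than those of any other group. Without the first of them the change with ATRA was -0.76 and no longer passed (adjusted p = 0.0205), while the rise with DAC passed whichever 1 library was left out (log2 change 1.01 to 1.57). The call against ATRA was lost whichever 1 ATRA library was left out (adjusted p = 0.0147 to 0.0188), and without the second (0.0238) or the third (0.0345) DAC+ATRA library.

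SIGLEC9 and SIGLEC7 encode receptors for sialic acid on myeloid and natural killer cells. SIGLEC9 was at 26.4, 30.9 and 30.1 normalised counts in untreated cells, at 47.1, 53.3 and 59.9 with DAC, at 17.0, 26.8 and 37.6 with ATRA, and at 42.0, 30.4 and 44.9 with DAC+ATRA. The DAC libraries lay above all others, and the other 3 groups overlapped. The log2 change with DAC was 0.85 ± 0.29 (limma adjusted p = 0.0507) and did not pass. For ATRA it was -0.16 (95% interval -0.76 to 0.43), and for DAC+ATRA 0.40 (-0.20 to 0.99).

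SIGLEC7 was at 24.5 to 45.5 normalised counts in untreated cells, at 38.1 to 51.8 with DAC, at 33.1 to 52.1 with ATRA, and at 40.5 to 52.1 with DAC+ATRA. All groups overlapped. Its log2 changes against untreated were 0.38 (95% interval -0.18 to 0.95) with DAC, 0.31 (-0.26 to 0.87) with ATRA and 0.37 (-0.19 to 0.94) with DAC+ATRA. A doubling against untreated, which is 1 on the log2 scale, lies just outside these intervals.

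The 4 LILRB receptors, whose known ligands include HLA class I molecules, were hardly counted. LILRB2 held 0, 2 and 2 reads in the untreated libraries and 1, 1 and 0 with DAC, but 1, 14 and 13 with ATRA and 5, 9 and 6 with DAC+ATRA. It passed the filter only through 3 libraries that received ATRA, and its changes with ATRA (log2 1.81, limma adjusted p = 0.0674) and DAC+ATRA (2.25, adjusted p = 0.0227) did not pass the test. LILRB3 held 0, 1 and 1 reads untreated, 0, 1 and 1 with DAC, 6, 10 and 4 with ATRA, and 3, 1 and 2 with DAC+ATRA. It did not reach the filter, so that no test of it is given. LILRB4 held 6 reads in all, and LILRB1 was listed at 0 in every library.

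These low values cannot be read as low expression. Of the 13 neighbours of the LILR genes that were listed for comparison, 11 stayed under 10 normalised counts in every library, and the broadly expressed TSEN34, NDUFA3 and LENG8 had 1, 1 and 2 reads over all 12 libraries. RPS9 alone was tested. In the SIGLEC cluster, 7 of 10 neighbours were tested. The leukocyte receptor complex has alternate copies among the 43 alternate contigs of chromosome 19 in hg38. Exonic words of 50 bases were taken from the listed transcripts with a match in GENCODE release 44. The alternate contigs of chromosomes 7, 19 and 20 were searched together for these words. Of the exonic 50-base words of LILRB1, LILRB2, LILRB3 and LILRB4, 98.9%, 95.2%, 96.2% and 100% also occurred on these contigs, and 85.1% of those of LAIR1. For CD33 the share was 0.492%, and for SIGLEC7, SIGLEC9, SIRPA and PILRA it was 0%. All 54 reads of LILRB2 and all 30 of LILRB3 were on rows with no match in GENCODE release 44, which holds no alternate contig here. The part of these copies in the counts was not tested.

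**Figure D2:**
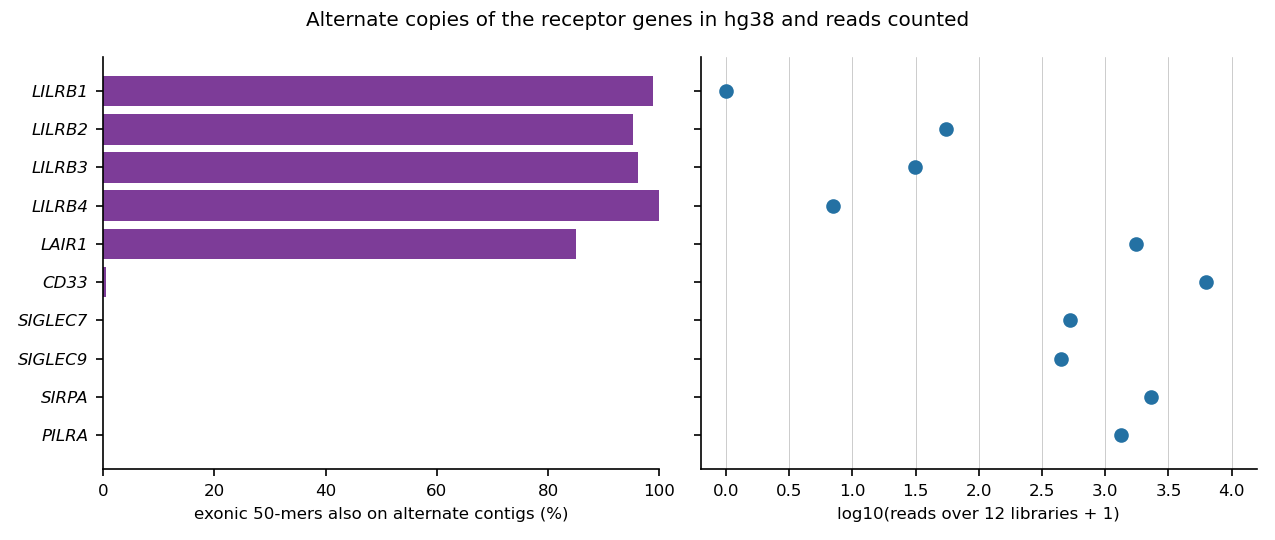
Left, percent of each receptor's exonic 50-base words that also occur on alternate contigs of chromosomes 7, 19 and 20 in hg38. Right, reads over all 12 libraries on a log10(reads + 1) scale. The 4 LILRB genes have 95.2% to 100% of their words on alternate contigs and at most 54 reads, LAIR1 has 85.1% and 1753 reads, and the other 5 have under 1% and 447 to 6303 reads.

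Across the 7 receptors tested, DAC changed 1 (PILRA, higher), against 7.97% of all genes tested, of which 4.29% were higher and 3.67% lower. That share was 13.1% without the third DAC library, 5.08% without the first untreated one and 4.79% without the second, and the receptor called was PILRA in each. ATRA changed 2 (SIRPA higher, PILRA lower), against 26.0% of all genes (12.1% higher, 14.0% lower). DAC+ATRA changed 3 (SIRPA, LAIR1 and CD33, all higher), against 28.9% (14.5% higher, 14.4% lower). Between DAC+ATRA and DAC, 4 differed (SIRPA, LAIR1 and CD33 higher, PILRA lower), against 18.8% (9.04% higher, 9.74% lower). Between DAC+ATRA and ATRA 2 differed (LAIR1 and PILRA, higher), against 11.9% (6.47% higher, 5.46% lower), a share that fell to 7.70% without the second ATRA and 7.71% without the second DAC+ATRA library. These comparisons share their untreated, single-drug or combination libraries. LILRB2 is among the 7 only through the libraries where it was high, so that the counts describe the receptors that could be measured and not all 10. The median log2 change of the 7 was 0.38, 0.40 and 0.88 for DAC, ATRA and DAC+ATRA against untreated, beside medians of -0.00, -0.04 and -0.00 over all genes tested. These medians include LILRB2, whose changes with ATRA (1.81) and DAC+ATRA (2.25) were the largest of the 7. They are therefore no measure of a shift of the receptors as a set.

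**Figure D3:**
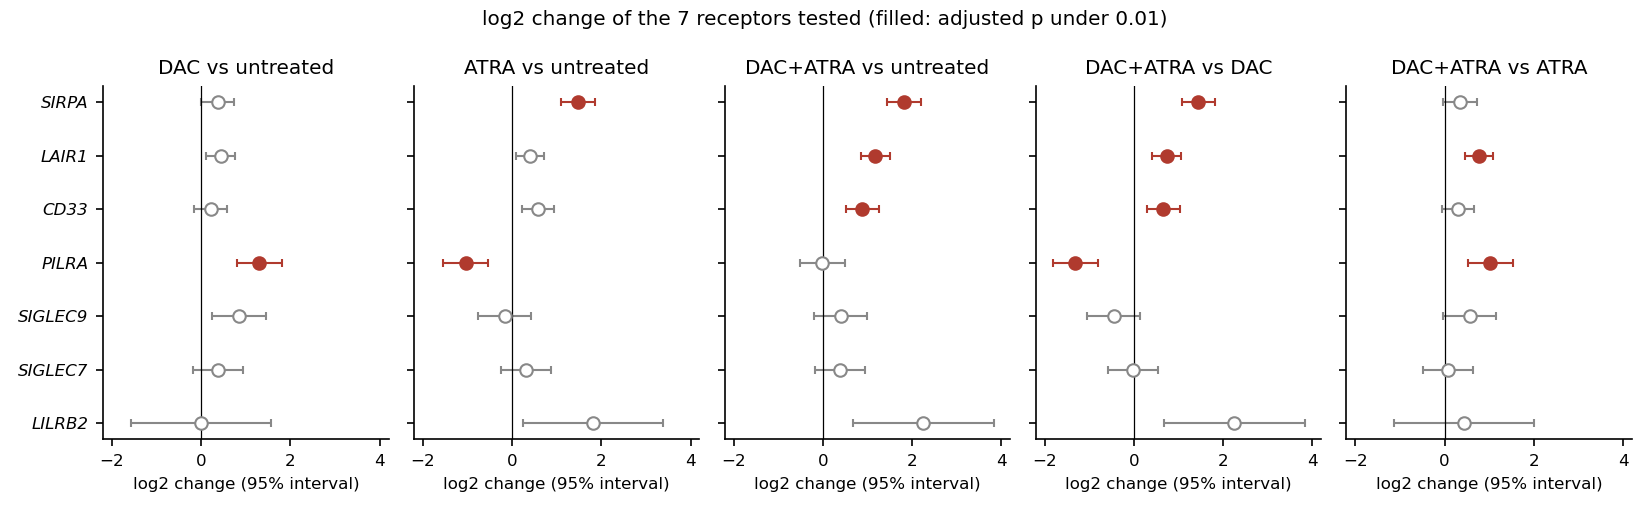
log2 change of normalised count + 1 (horizontal axis) with the 95% limma interval for the 7 receptors tested in 5 comparisons of 3 against 3 libraries; filled points passed an adjusted p under 0.01. SIRPA, LAIR1 and CD33 lie above 0 with DAC+ATRA, and PILRA lies above 0 with DAC (1.30), below 0 with ATRA (-1.04) and at -0.02 with both.

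The interaction asked whether the effect of DAC differed in the presence of ATRA. None of the 7 receptors was called in it by limma, against 1.60% of all genes (1.00% to 2.48% with 1 library left out), and 0 had an unadjusted p under 0.05, the smallest being 0.141. edgeR and DESeq2 on the recovered reads called 0 as well. For LAIR1 the interaction was 0.34 on the log2 scale (95% interval -0.12 to 0.79). For PILRA it was -0.28 (-0.99 to 0.43), for SIRPA -0.02 (-0.55 to 0.51), and for CD33 0.09 (-0.43 to 0.61), or -0.14 without the third DAC library. Additivity here is on the log2 scale, where folds multiply. Departures from it within these intervals were not detectable with 3 libraries a group.

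The transcript rows behind the receptors showed which forms were counted. CD33 reads fell on 2 of its 4 listed transcripts, ENST00000262262 (7 exons, 1462 exonic bases) and ENST00000436584 (5 exons, 1494 bases), and the latter held 16.5% ± 3.4 (SD, n = 3) of CD33 in untreated cells and 12.9% ± 3.8 with DAC+ATRA. The 6-exon transcript ENST00000421133 has no exonic base of its own among the listed transcripts, and no reads were listed for it. For SIRPA, the row ENST00000400068 held 44.02% ± 5.2 in untreated cells and 53.8% ± 0.7 with DAC+ATRA, and ENST00000622179 held 39.0% ± 5.3 and 30.5% ± 4.8. For SIGLEC9, ENST00000440804 held 11.6% ± 8.0 untreated, 27.9% ± 9.5 with DAC and 36.1% ± 23.6 with DAC+ATRA. With each gene represented by its highest row alone, the change of SIGLEC9 with DAC was 0.55 (adjusted p = 0.302). PILRA stayed on ENST00000198536, at 88.8% to 95.1% on average in each group. No test was run on these shares.

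**Figure D4:**
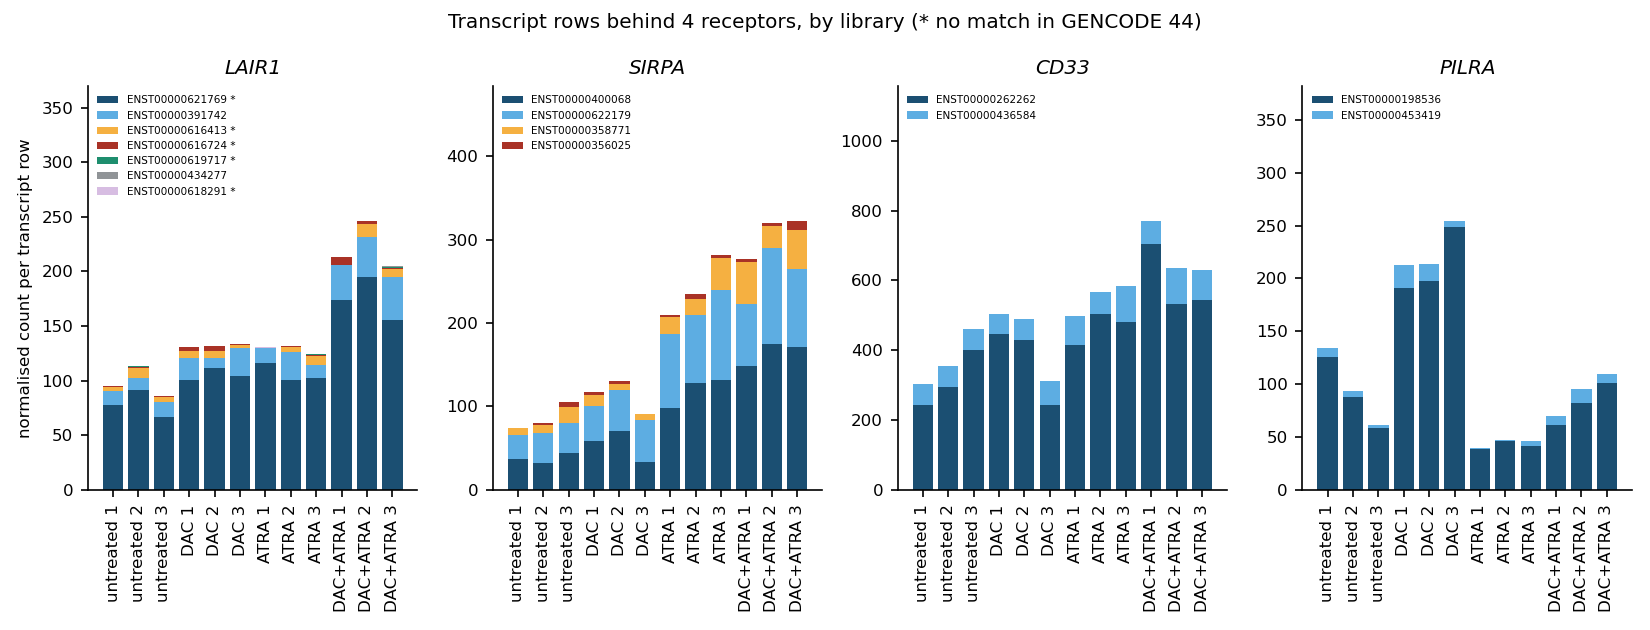
Normalised counts per transcript row (vertical axis, stacked) of LAIR1, SIRPA, CD33 and PILRA in each of the 12 libraries; an asterisk marks rows with no match in GENCODE release 44. The row ENST00000621769 makes up most of LAIR1, and 1 row each makes up most of CD33 and PILRA in every library.

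The bases that only 1 listed transcript holds ranged from 95 of 3020 exonic bases for LILRB2 to 2241 of 4005 for LILRB4. They were 399 of 4957 for SIRPA, 285 of 1754 for SIGLEC7, 248 of 1300 for PILRA, 826 of 2374 for CD33, 1112 of 2382 for SIGLEC9 and 2601 of 5236 for LAIR1. This left out 21 of the 26 rows of LAIR1, with 85.3% of its reads, and every row of LILRB2 and LILRB3 that had reads. For these 3 receptors the figures do not describe the rows counted. SIRPA, CD33, SIGLEC7, SIGLEC9 and PILRA had no row without a match. How reads that fit several transcripts were counted is not given in the sources used here, and levels are not compared between receptors. The CD33 and SIGLEC7 transcripts with no exonic base of their own (ENST00000391796, ENST00000421133, ENST00000305628 and ENST00000600577) had no reads in any library. The row shares above cannot be read as shares of the transcripts in the cells. Related genes also share sequence. Of the 50-base words of the listed transcripts, 12.3% of SIRPA (10.8% with SIRPB1 alone), 14.2% of PILRA (9.05% with PILRB) and 27.8% of LILRB3 (20.6% with LILRA6) occurred in another gene, so that a part of the reads of each pair cannot be assigned.

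The activating counterparts were compared with their inhibitory partners. SIRPB1, the activating relative of SIRPA, was at 438 ± 17.8 normalised counts (SD, n = 3) in untreated cells, 571 ± 50.4 with DAC, 1253 ± 95.3 with ATRA and 1027 ± 58.8 with DAC+ATRA, and rose with ATRA (log2 change 1.51, limma adjusted p = 1.3e-09) and DAC+ATRA (1.23, adjusted p = 3.0e-08). PILRB was at 74.0 ± 9.1 untreated, 82.0 ± 9.3 with DAC, 108 ± 12.4 with ATRA and 141 ± 25.4 with DAC+ATRA. It rose with DAC+ATRA (0.91, adjusted p = 0.00067), where PILRA did not differ from untreated by more than the spread, and its changes with DAC (0.15) and ATRA (0.54, adjusted p = 0.031) did not pass. LILRA6 was at 0 in all groups but DAC (mean 1.45). SIGLEC14, an activating sialic acid receptor, rose with DAC (1.21), ATRA (1.86) and DAC+ATRA (2.32). CD300LB rose from 587 to 8481 normalised counts with ATRA and to 3095 with DAC+ATRA (log2 changes 3.85 and 2.40) and was called in the interaction (-1.17, adjusted p = 0.00011). CLEC5A, which was at 19.8 in untreated cells, had no reads in any library with ATRA.

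Of the 3 adaptors of activating receptors listed, TYROBP and FCER1G rose with ATRA and HCST fell. TYROBP was at 126 ± 2.5 normalised counts in untreated cells, 241 ± 37.4 with ATRA and 242 ± 24.4 with DAC+ATRA (log2 changes 0.91 and 0.93). FCER1G rose with DAC (1.15), ATRA (1.84) and DAC+ATRA (1.98). HCST rose from 69.7 ± 2.7 to 247 ± 26.5 normalised counts with DAC (log2 change 1.81), fell to 31.2 ± 4.4 with ATRA (-1.14, limma adjusted p = 6.1e-05), and was at 63.1 ± 3.4 with DAC+ATRA (-0.14, adjusted p = 0.57). Of the 13 activating genes tested out of 21 listed, DAC changed 3 (all higher), ATRA 9 (7 higher, 2 lower) and DAC+ATRA 8 (6 higher, 2 lower), against 7.97%, 26.0% and 28.9% of all genes tested. The median log2 changes were 0.45, 1.18 and 0.93. Of the 13, LILRA1 reached the filter on low values only through libraries that received ATRA, and CLEC5A only through libraries without it. Both are in these counts and medians because they were high there.

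**Figure D5:**
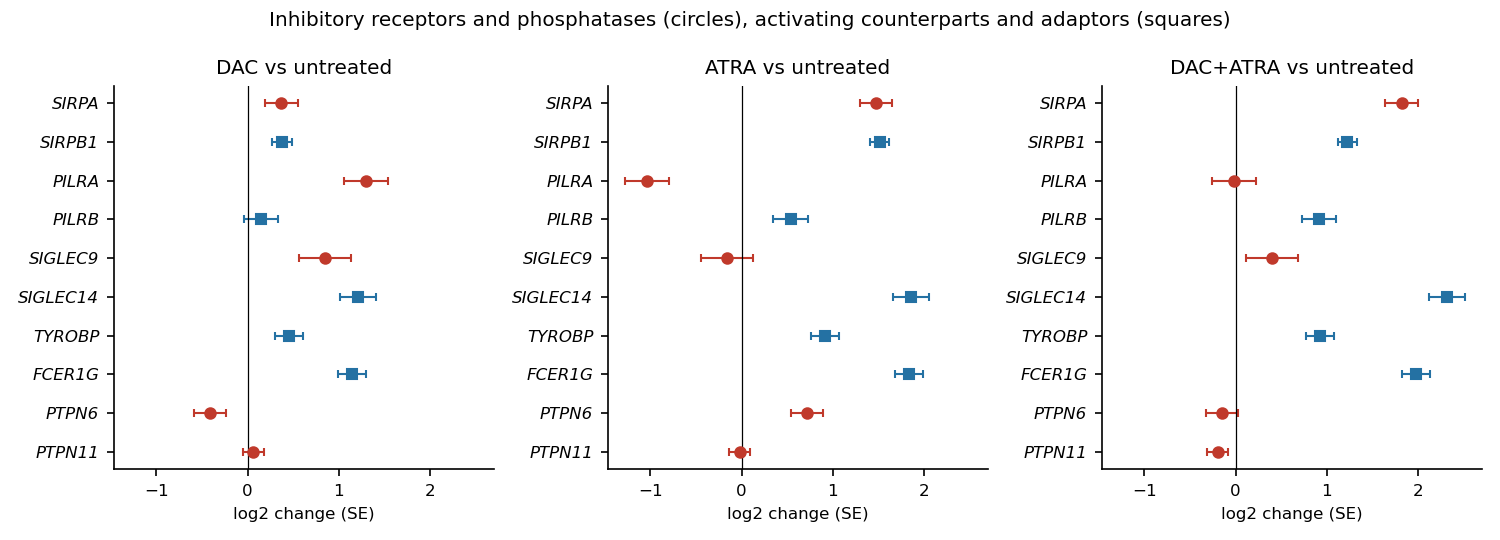
log2 change of normalised count + 1 against untreated (horizontal axis, bars are the SE) with DAC, ATRA and DAC+ATRA for inhibitory receptors and phosphatases (circles) and for activating relatives and adaptors (squares). SIRPA and SIRPB1 lie above 1 with ATRA and with both drugs, whereas PILRA lies at -1.04 and PILRB at 0.54 with ATRA.

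Of the 2 phosphatases that ITIMs recruit, PTPN6 rose with ATRA and PTPN11 passed in no comparison. PTPN6 (SHP-1) was at 197 ± 32.0 normalised counts in untreated cells, 148 ± 29.7 with DAC, 324 ± 29.4 with ATRA and 178 ± 27.1 with DAC+ATRA. The change with ATRA was 0.72 on the log2 scale (limma adjusted p = 0.0029), and DAC+ATRA was lower than ATRA (-0.87, adjusted p = 0.0014). PTPN11 (SHP-2) had group means between 2612 and 3149 normalised counts. Among the kinases, FGR rose from 33.5 ± 4.0 to 148 ± 15.7 with DAC (2.11, adjusted p = 2.3e-07) and to 128 ± 9.5 with DAC+ATRA (1.90), and SRC rose with ATRA (1.74) and DAC+ATRA (2.08). CSK, which restrains Src family kinases, rose with DAC+ATRA (0.71), and the adaptor DOK1 with ATRA (2.22) and DAC+ATRA (1.24). Of the 14 signalling genes tested out of 15, DAC raised 1 and lowered 1, ATRA raised 7 and lowered 1, and DAC+ATRA raised 5 and lowered 0, against 7.97%, 26.0% and 28.9% of all genes changed in either direction. The median log2 changes were -0.06, 0.69 and 0.30.

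Ligand genes were measured in the same cells. CD47, the ligand of SIRPA, was at 1122 ± 201 normalised counts in untreated cells, 1355 ± 206 with DAC, 878 ± 56.9 with ATRA and 799 ± 106 with DAC+ATRA. It was lower with DAC+ATRA than in untreated cells (log2 change -0.48, limma adjusted p = 0.0093) and than with DAC (-0.76, adjusted p = 0.00035). HLA-B, an HLA class I heavy chain, rose from 1701 ± 64.1 to 3220 ± 355 with DAC, 4796 ± 793 with ATRA and 6519 ± 340 with DAC+ATRA (0.91, 1.48 and 1.94). HLA-E was at 8.33 ± 0.92 in untreated cells, 32.1 ± 16.7 with DAC, 27.4 ± 12.4 with ATRA and 58.5 ± 19.3 with DAC+ATRA. It passed the filter on low values only through the treated libraries, so that no test of it is given. COL1A1, a collagen chain and thus a LAIR1 ligand, rose from 8.03 ± 2.93 to 79.0 ± 12.5 with ATRA and 48.6 ± 9.5 with DAC+ATRA. COL4A1, another collagen chain listed, went the other way. It was at 50.2 ± 9.4 in untreated cells, 4.86 ± 2.14 with ATRA and 20.7 ± 15.2 with DAC+ATRA. NPDC1, a ligand of PILRA, was at 3.56 ± 2.41 in untreated cells and 29.3 ± 9.5 with DAC+ATRA. It passed the filter on low values through the DAC+ATRA libraries, so that no test of it is given. Of the 12 ligand genes tested out of 26, DAC raised 3 and lowered 0, ATRA raised 5 and lowered 2, and DAC+ATRA raised 6, NPDC1 and HLA-E included, and lowered 1 (medians 0.42, 0.66 and 1.16), against 7.97%, 26.0% and 28.9% of all genes changed in either direction. NPDC1 and HLA-E are in these counts and medians because they were high in treated libraries.

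Genes that make, move or transfer sialic acid, the ligand of CD33, SIGLEC7 and SIGLEC9 were listed as well. Of 17 tested out of 22, DAC raised 0 and lowered 1, and ATRA and DAC+ATRA each raised 2 and lowered 3, which is close to the 26.0% and 28.9% of all genes changed. Named by size of the change with DAC+ATRA, single genes were the sialyltransferases ST6GALNAC2 (log2 change -2.52), ST3GAL6 (0.83) and ST8SIA4 (-0.53), and the lysosomal sialic acid exporter SLC17A5 (0.82).

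For 5 of the receptors, the genes with the most similar profile were taken by the root mean square difference of centred log2 values over the 12 libraries. For LAIR1 these were PTPRJ (0.144) and HDAC8 (0.150), against a spread of LAIR1 itself of 0.435 about its mean. For SIRPA they were PLD4 (0.174) and PAXX (0.178), against 0.775, and for CD33 MICALL1 (0.128) and MTA2 (0.143), against 0.402. SIGLEC9 was nearest to ISL2 (0.219) and SH3BP5 (0.257), and SIGLEC7 to AKNA (0.169) and POMT1 (0.191), against spreads of 0.475 and 0.296. The 12 libraries share their 4 treatments, and no test was made of these likenesses.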

How the data were processed

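Total RNA of MOLM-13 cells was sequenced by the authors after ribosomal depletion, in 12 strand-specific libraries, 3 per group. Alignment to hg38 was with STAR, counting with htseq-count, and the authors' own test, restricted to protein-coding transcripts, with DESeq2. The annotation release is not given in the sources used here. The deposited values are a normalised signal per transcript row (100502 rows), in which each library's read counts were divided by 1 size factor by the authors. In every library 100% of values were whole multiples of 1 step (tolerance 0.001), so reads were recovered by division.

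Rows were summed per symbol. Genes of protein-coding biotype in GENCODE release 44 (88.9% of rows matched) that reached 10 normalised counts in 3 or more libraries were tested with limma 3.58.1 in R 4.3.3 (lmFit, eBayes with trend) on log2(normalised count + 1), with 1 coefficient per group over all 12 libraries and no covariate. P-values were adjusted by Benjamini-Hochberg per comparison and called under 0.01. Library depth was 4.67 to 11.9 M reads, and the fit used no weights for depth. Intervals are 95% limma intervals. The fits were tested on simulated data.

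The receptors and lists were chosen with earlier results of these data known. All 10 receptors are named. From each list, up to 4 genes with the largest change with DAC+ATRA among those called, and the direct partners or ligands PTPN6, PTPN11, TYROBP, CD47, PILRB, LILRA6 and SIRPB1, are named, together with the 2 most similar genes for 5 of the receptors. The similar genes of the other two tested are not reported here. TSEN34, NDUFA3, LENG8, RPS9, HCST, LILRA1, COL4A1, CD101, CD300LF and the marker genes named that are not among those 4 fall outside this rule. They were chosen after their values were seen. Alternatives were edgeR 4.0.16 and DESeq2 1.42.0 on recovered reads, other scalings, pseudocounts, filters and thresholds, all symbols, only the compared groups, a replicate block, the highest transcript row, and leaving out each library.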

Additional observations from a re-analysis of the deposited data

How the results depend on the processing

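Under 14 alternative settings and 12 that left out 1 library each, no change of a receptor reversed its direction among the called results. The count of receptors called moved as follows. With ATRA against untreated, 2 became 4 at an adjusted p under 0.05, and 1 to 3 when 1 library was left out. With DAC+ATRA against DAC, 4 became 2 to 4 when 1 library was left out, and 2 were left without the second DAC+ATRA library. With DAC+ATRA against ATRA, 2 became 1 with the highest transcript row per gene, 1 with only the rows matched to release 44 (a setting chosen after seeing the data), and 0 to 2 when 1 library was left out, 0 of them without the second DAC+ATRA library. DAC alone (1), DAC+ATRA against untreated (3 to 4) and the interaction (0) did not fall when 1 library was left out. The 4 includes LILRB2, which passed the filter only through libraries with ATRA. For single receptors, 22 values lost their call, 10 gained one and 1001 kept their side of the threshold. The causes were not tested.

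The replicate numbers do not pair the libraries: correlations of deviations between libraries of the same number ranged from -0.263 to 0.114, with 2 of 18 over 0.1. With the replicate block, 1 receptor instead of 2 was called between DAC+ATRA and ATRA, and 3 instead of 4 between DAC+ATRA and DAC. The other counts did not move.

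LILRB1 to LILRB4 rest on 0 to 14 reads a library, where 1 read was worth 0.627 to 1.57 normalised counts. The cause of these low counts was not tested.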

Other observations

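Other inhibitory receptors of myeloid cells were listed too, and those with the largest change are named first. SIGLEC11, a sialic acid receptor, was at 3.09 ± 2.31 normalised counts (SD, n = 3) in untreated cells, 3.04 with DAC, 68.8 ± 1.46 with ATRA and 141 ± 24.7 with DAC+ATRA. SIGLEC12 rose from 11.6 to 61.9 and 70.6 with ATRA and DAC+ATRA (2.42 and 2.61). CEACAM1 had no reads in the untreated and DAC libraries and was at least 17.0-fold higher with ATRA and at least 5.84-fold higher with DAC+ATRA than the level of 3 reads per library in untreated cells. CLEC12A, an inhibitory lectin of myeloid cells, fell from 75.6 ± 19.2 in untreated cells to 0.279 ± 0.483 with ATRA and 5.79 ± 3.55 with DAC+ATRA (-5.94 and -3.59), and was at 150 ± 53.2 with DAC (adjusted p = 0.14). Of the 15 such receptors tested out of 25 listed, ATRA raised 9 and lowered 3 and DAC+ATRA raised 7 and lowered 3, while DAC raised 1 and lowered 1, against 26.0%, 28.9% and 7.97% of all genes changed in either direction. The median log2 changes were 1.56 with ATRA and 0.91 with DAC+ATRA. SIGLEC11 and CEACAM1 reached the filter on low values only through libraries that received ATRA, so that they are in these counts and medians because they were high there. CLEC12A reached it only through libraries without ATRA, where it was high. CD101 (-0.01 with ATRA, 0.48 with DAC+ATRA) and CD300LF (-0.53 and 0.56) passed in no comparison with untreated cells, and 10 of the 25 were too low to be tested.

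Among 13 monocyte and macrophage surface markers tested out of 16 listed, DAC raised 2 and lowered 0, ATRA raised 6 and lowered 1, and DAC+ATRA raised 7 and lowered 2, against 7.97%, 26.0% and 28.9% of all genes changed in either direction. ITGAM rose from 9.58 to 57.3 normalised counts with ATRA and 46.1 with DAC+ATRA, CCR2 from 496 to 3524 and 2269, CD36 from 232 to 516 and 946, and CD209, which passed the filter through libraries with ATRA, was at 2.22, 21.7 and 30.8. FCGR1A fell from 1619 to 409 and 692 (log2 changes -1.99 and -1.23), and CD14 was at 10.6, 2.23 and 2.63 and did not pass (limma adjusted p = 0.016 and 0.051). In the SIGLEC cluster, the neighbours ETFB (log2 change -0.78), NKG7 (-0.67) and IGLON5 (-3.58) were lower with DAC+ATRA than in untreated cells (3 of 7 tested, against 14.4% of all genes lower), while CD33 in the same cluster was higher, and 0 of the 7 rose with DAC+ATRA. IGLON5 passed the filter on low values through the untreated libraries, so that it is in this count because it was high there.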
